A study of Mus musculus with 14 samples.

Results

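Mitf, Sox10, Pax3, Tfap2a, Lef1, Trpm1 and Syngr1 are genes that build or mark the melanocyte lineage. They were taken by symbol from the deposited count table, where all 7 are present among 21138 genes, and were followed across sorted cell classes, tissues and samples. The data are single-cell RNA libraries made with Smart-seq2, a plate method that reads full-length cDNA of 1 sorted cell. Female C57BL/6J mice aged 6 to 8 weeks were injected with fluorescently labelled B16F10 cells, a melanoma line from the same strain, and cells of blood and lung were sorted into classes labelled CTC, DP and WBC. The 9 tumor-bearing samples gave 43 CTC (5 samples), 450 DP cells (9 samples) and 46 WBC (6 samples). Replicates 7 to 9, which carry P labels, held DP cells alone. Each control class was 1 sample: 22 cells labelled B16F10, whose cell type is given as CTC, 21 naive WBC, and 18 CDP, 24 Duplike and 24 PltLike cells. The labels of CDP, Duplike and PltLike give naive C57BL/6J as the treatment, yet every cell of these 3 classes carried melanoma pigment genes, so their values are given by label only. No label says that each sample is its own animal, so the spread behind the p-values may be technical.

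MITF is the basic helix-loop-helix factor that switches on pigment genes and melanocyte survival genes. SOX10 and PAX3 bind its melanocyte promoter and activate it, and LEF1 acts there with beta-catenin downstream of Wnt signals. TFAP2A works with MITF at many melanocyte genes, and TRPM1, a cation channel whose gene is a direct MITF target, falls in aggressive melanoma. MITF is also made outside the lineage from other first exons, among others in macrophages, osteoclasts and mast cells, and SYNGR1 is a synaptic vesicle protein that is not restricted to melanocytes.

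The promoters of Mitf and Trpm1 are shown because both genes have several first exons that a count per gene adds together. RefSeq windows (GRCm38.p6) matched 5 of the 7 genes, with 12 windows. The 250 bases upstream of each start were searched on both strands for CACGTG (E-box), CATGTG (core of the M-box), TGACGTCA (cAMP response element), CTTTGAT (TCF and LEF) and ACAAT (SOX). Capitals mark the matches. The other Mitf windows held no match, and a Lef1 window that held an E-box and SOX letters is not shown. The Mitf window lies upstream of a start inside the gene, at chr6:97991533-97991782 on the plus strand. The Trpm1 windows lie at chr7:64153585-64153834 and chr7:64185209-64185458, also on the plus strand, and are called upstream and downstream.
Mitf: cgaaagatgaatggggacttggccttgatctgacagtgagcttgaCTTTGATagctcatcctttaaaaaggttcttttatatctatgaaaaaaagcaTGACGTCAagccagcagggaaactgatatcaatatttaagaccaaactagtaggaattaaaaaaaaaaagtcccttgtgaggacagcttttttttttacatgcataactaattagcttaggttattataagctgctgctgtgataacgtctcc
Trpm1 upstream: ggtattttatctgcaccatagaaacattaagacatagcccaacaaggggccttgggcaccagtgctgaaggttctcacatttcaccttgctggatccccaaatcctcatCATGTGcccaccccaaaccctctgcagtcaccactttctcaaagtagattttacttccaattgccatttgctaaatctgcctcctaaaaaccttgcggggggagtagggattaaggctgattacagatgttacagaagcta
Trpm1 downstream: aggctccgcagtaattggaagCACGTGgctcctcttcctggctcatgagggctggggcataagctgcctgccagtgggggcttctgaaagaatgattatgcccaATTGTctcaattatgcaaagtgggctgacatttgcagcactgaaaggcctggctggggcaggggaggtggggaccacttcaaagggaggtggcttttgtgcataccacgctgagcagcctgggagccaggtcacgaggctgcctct
In the Mitf window the cAMP response element begins 153 bases and the TCF and LEF letters 205 bases before the start. These letters occur in 1.55% and 3.21% of all 32817 RefSeq windows of this length. The upstream Trpm1 window holds the M-box core at 141 bases before the start (12.3% of windows). The downstream one holds an E-box at 229 bases (6.02%) and ATTGT, the reverse complement of the SOX letters, at 146 bases (27.7%). A match describes letters and is not a measured binding site. CTTTGAT and ACAAT share no overlap in these windows.

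The cells held 0.0205 to 104 Mcounts each (megacounts), with a median of 15.8, and the class medians were 22.1 in CTC, 15.8 in DP, 4.93 in WBC and 1.05 in naive WBC. Levels are in CPM, counts scaled to the library total, of the summed counts of all cells of a class in a sample. In such sums fewer expressing cells and less RNA per cell cannot be told apart, so values per cell are given beside them. The DP class mixes cells with and without melanoma pigment RNA. It was therefore also divided by the summed CPM of Pmel, Tyrp1, Dct, Tyr, Mlana and Slc45a2, with 296 cells at 1000 CPM or more called pigment-high (206 of blood, 90 of lung) and 154 called pigment-low (67 and 87). The 6 genes that make this division are themselves targets of MITF and SOX10. The leukocyte gene Ptprc (CD45), at 5 CPM or more, was found in 38 of 43 blood and 40 of 51 lung pigment-low DP cells in which none of Mitf, Sox10 and Pax3 reached that level, and in 16 of 18 such blood and 7 of 14 such lung WBC.

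Sox10 (chromosome 15, 79154908 to 79165240, GRCm38), the neural crest factor at the top of the lineage, was present in nearly every tumor cell and nearly absent from leukocytes. Its level in CTC was 398, 257, 273, 353 and 235 CPM in replicates 1, 2, 3, 5 and 6. In pigment-high DP it ran from 189 to 434 CPM with a median of 259 over 8 samples. In WBC it ran from 0.236 to 2.49 CPM with a median of 0.677 over 6 samples, and it was 0.414 CPM in naive WBC. In lung alone the lowest pigment-high DP sample held 0.373 CPM, within the WBC range. In sums over tissues CTC and pigment-high DP overlapped with each other, and neither overlapped with WBC. Single cells showed the same division, with Sox10 at 5 CPM or more in 28 of 28 blood CTC, 15 of 15 lung CTC, 204 of 206 blood and 77 of 90 lung pigment-high DP cells. Among WBC it reached that level in 6 of 28 blood and 1 of 18 lung cells. Thinned to 500000 counts per cell, with shallower cells left out, a count of Sox10 was left in 99.0% of blood pigment-high DP cells and 42.3% of blood WBC, and single counts were not read as expression. Per kilobase of exon, Sox10 was the most abundant of the 7 genes in CTC, at 99.4 CPM per kb, ahead of Syngr1 (65.2), Pax3 (30.6), Mitf (25.3), Trpm1 (23.5) and Tfap2a (1.83). With their spread between samples, Pax3, Mitf and Trpm1 cannot be ordered.

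Pax3 (chromosome 1, 78101267 to 78197134), the paired-box factor that acts with SOX10 on Mitf, followed the same pattern at a lower level. CTC held 116, 152, 289, 221 and 170.3 CPM in replicates 1, 2, 3, 5 and 6, and pigment-high DP ran from 107 to 256 CPM with a median of 218. WBC ran from 0.0886 to 1.89 CPM (median 0.482) and naive WBC held 0.451 CPM. In sums over tissues no CTC or pigment-high DP sample came near the WBC range. In lung alone the lowest pigment-high DP sample held 0 CPM. The gene reached 5 CPM in 196 of 206 blood and 70 of 90 lung pigment-high DP cells.

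**Figure D1:**
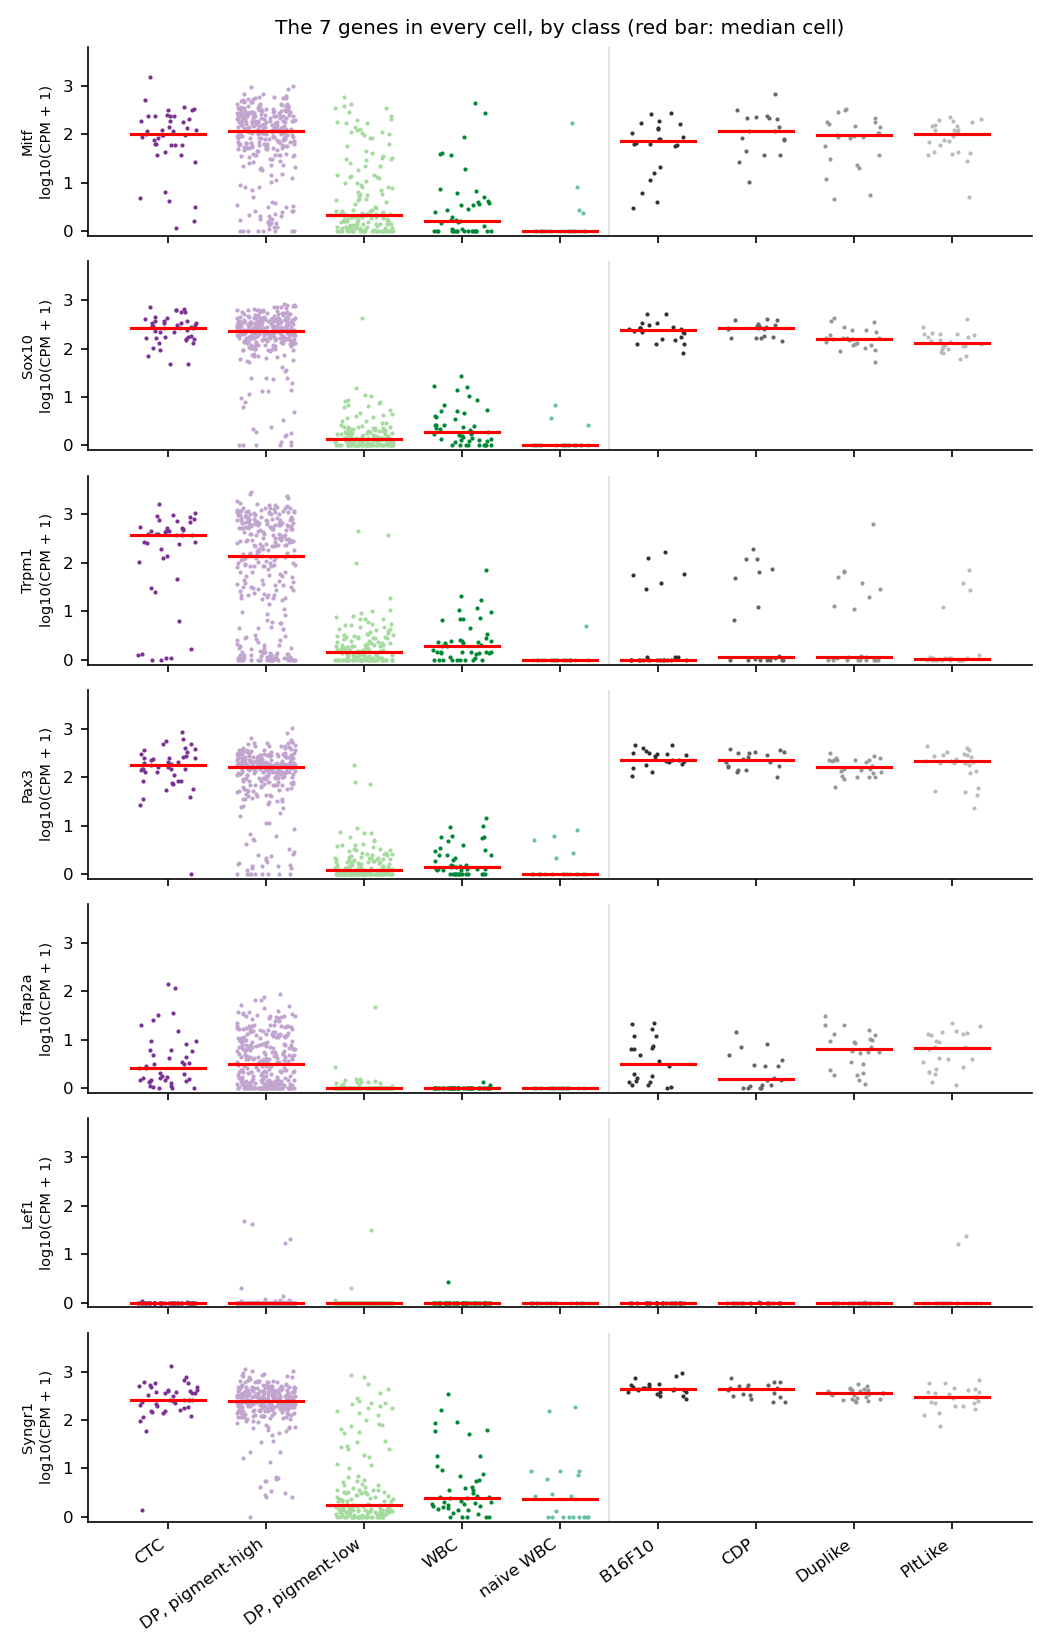
Each of the 7 genes in every cell, as log10(CPM + 1) on the vertical axis, by class on the horizontal axis, with 1 point per cell and a red bar at the median cell. Sox10 and Pax3 are high in CTC, pigment-high DP and 4 control classes and near 0 elsewhere. Mitf and Syngr1 have a scatter of high cells in pigment-low DP and WBC. Trpm1 spreads from 0 to high levels within the pigment-high classes, and Lef1 lies at 0 in nearly all cells.

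Mitf (chromosome 6, 97807052 to 98021349) was about as high in the tumor classes as Pax3 but did not vanish from leukocytes. CTC held 217, 225, 151, 117 and 75.4 CPM in replicates 1, 2, 3, 5 and 6, and pigment-high DP ran from 117 to 287 CPM with a median of 183. Pigment-low DP ran from 10.2 to 58.3 CPM with a median of 19.2 over 9 samples. WBC held 0.931, 0.148, 84.5, 0.337, 7.60 and 26.1 CPM in replicates 1 to 6, and naive WBC held 6.77 CPM. Replicate 3 of WBC lay above replicate 6 of CTC, so the CTC and WBC ranges met. Those of pigment-high and pigment-low DP did not meet in sums over tissues. DP was divided by targets of MITF, so this gap was partly set by the division. In lung alone the lowest pigment-high DP sample held 0.186 CPM. Mitf reached 5 CPM in 25 of 28 blood CTC and 191 of 206 blood pigment-high DP cells, and in 69 of 90 of lung. In blood WBC it did so in 6 of 28 cells, in lung WBC in 4 of 18 and in naive WBC in 2 of 21. Thinned to 500000 counts per cell, 95.6% of blood pigment-high DP cells, 53.8% of blood WBC and 11.8% of naive WBC kept a count.

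Trpm1 (chromosome 7, 64153835 to 64269775), the MITF target, was the most uneven of the abundant genes, and its level differed more between samples than between CTC and pigment-high DP. CTC held 745, 78.2, 525, 349 and 33.2 CPM in replicates 1, 2, 3, 5 and 6. Pigment-high DP held 535, 180.4, 736, 802, 48.1, 435, 345 and 373 CPM in replicates 1, 2, 3, 5, 6, 7, 8 and 9. Replicates 2 and 6 were the lowest in both classes. Sox10, Pax3 and Mitf did not follow this in both classes. Syngr1 was also lowest in replicates 2 and 6 in CTC. Sox10 was lowest in these replicates in CTC (257 and 235 CPM) but in replicate 8 in pigment-high DP (189 CPM), and Pax3 was lowest in them in pigment-high DP (129 and 107 CPM) but in replicate 1 in CTC (116 CPM). Mitf was highest in replicate 2 in both classes (225 and 287 CPM). WBC ran from 0.177 to 3.78 CPM (median 0.714). In cells the level was spread. Of the 74 pigment-high DP cells of replicate 6, 18 held 0 counts, 36 reached 5 CPM and 17 reached 50 CPM. The level of 50 CPM was chosen after the data were seen. It was reached in 23.0% of cells of replicate 6 (exact 95% binomial interval 14.0 to 34.2) and in 7 of 21 of replicate 2. In the other 6 samples 66.7% to 86.5% of cells reached it. In CTC these replicates also had the fewest such cells, with 1 of 6 cells in replicate 2, 1 of 5 in replicate 6, and 3 of 3, 14 of 15 and 13 of 14 in replicates 1, 3 and 5. Of the 6 pigment genes, Pmel, Tyrp1 and Mlana were also lowest in replicates 2 and 6 in both classes. In these replicates Pmel was at 4837 and 2765 CPM in CTC, against 8460 to 11219 in the others. In pigment-high DP it was at 6562 and 3122 CPM, against 7418 to 9296. Tyrp1 was at 6191 and 3804 CPM in CTC and 8240 and 4276 CPM in pigment-high DP. Dct followed this in CTC alone, Slc45a2 in pigment-high DP alone and Tyr in neither class. The part of the pigment genes in the Trpm1 difference was not tested.

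The control classes were also low in Trpm1. The 22 B16F10 cells had a median of 0 CPM, with 4 cells at 50 CPM or more (18.2%, exact 95% interval 5.19 to 40.3). CDP had 5 of 18 such cells, Duplike 4 of 24 and PltLike 1 of 24. In the same B16F10 cells Sox10 and Pax3 were at 244 and 263 CPM and reached 5 CPM in 22 of 22 cells each. Mitf was at 85.7 CPM in B16F10, 165 in CDP, 119.7 in Duplike and 104 in PltLike, which is within the CTC range. These are single samples with no replicate check.

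Tfap2a (chromosome 13, 40715302 to 40738376), a partner of MITF at melanocyte genes, was low but lineage-restricted. CTC held 2.71, 9.46, 8.28, 4.66 and 19.7 CPM in replicates 1, 2, 3, 5 and 6, and pigment-high DP ran from 4.53 to 7.95 CPM. All WBC together held 12 counts, 10 of them in replicate 6, and naive WBC held 0 counts. CTC and WBC did not overlap. Only 80 of 206 blood and 23 of 90 lung pigment-high DP cells reached 5 CPM, against 1 of 154 pigment-low DP cells. At least 1 count was present in 183 of 206 blood and 65 of 90 lung pigment-high DP cells, against 5 of 67 blood and 11 of 87 lung pigment-low DP cells, at median depths of 18.6, 18.2, 7.96 and 8.08 Mcounts.

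Lef1 (chromosome 3, 131110471 to 131224356), the Wnt-responsive factor, was nearly absent. It had 3874 counts in all cells together, and 7 cells reached 5 CPM. All CTC together held 3 counts and B16F10 held 0 counts. The highest samples were pigment-high DP of replicate 8, with 3.77 CPM, and PltLike, with 1.75 CPM. It failed the low-count filter of the class comparisons, and no difference is given for it. Other factors of its family were present: Tcf7l2 was at 36.9 ± 41.7 CPM in CTC (SD, n = 5), 16.8 ± 5.71 in pigment-high DP (n = 8) and 35.2 ± 32.4 in WBC (n = 6).

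Syngr1 (chromosome 15, 80091334 to 80119501), the synaptic vesicle gene, varied little between samples of pigment-high DP. CTC held 412, 162, 402, 413 and 179 CPM in replicates 1, 2, 3, 5 and 6, and pigment-high DP ran from 249.9 to 383 CPM with a median of 341. WBC held 0.738, 0.310, 22.4, 31.9, 81.0 and 45.8 CPM in replicates 1 to 6, and naive WBC held 15.8 CPM. CTC lay above every WBC sample, and pigment-low DP, from 0.516 to 218 CPM, overlapped with both. The gene reached 5 CPM in 204 of 206 blood and 83 of 90 lung pigment-high DP cells, and in 8 of 28 blood and 5 of 18 lung WBC.

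The comparison of leukocytes with CTC separated 6 of the genes into lineage-restricted and shared ones. Lef1, with 3 counts in CTC and 34 in WBC, was left out. Set against the mean of CTC, WBC held 0.292% of the Sox10 level, 0.327% of Trpm1, 0.360% of Pax3 and 0.551% of Tfap2a. The 6 pigment genes lay between 0.246% and 1.31%, a range that holds these 4 regulators. Mitf was at 12.7% and Syngr1 at 9.67%. The Mitf value rests on WBC replicate 3 (84.5 CPM), without which it was 4.47%, below Syngr1 (10.2%). Syngr1 was 6.44% without replicate 5. With 1 WBC sample left out, Sox10, Trpm1, Pax3 and Tfap2a were as low as 0.185%, 0.175%, 0.232% and 0.143%, and Dct, the highest pigment gene, lay between 0.729% and 1.56%. Naive WBC held 4.31% for Mitf and 5.03% for Syngr1. With any 1 WBC sample left out, and in naive WBC, Mitf and Syngr1 stood above Sox10, Trpm1, Pax3, Tfap2a and the 6 pigment genes. The order of Mitf and Syngr1 is not settled. The WBC values are means and do not describe every sample. Mitf was under 1 CPM in WBC replicates 1, 2 and 4, and Syngr1 in replicates 1 and 2.

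**Figure D2:**
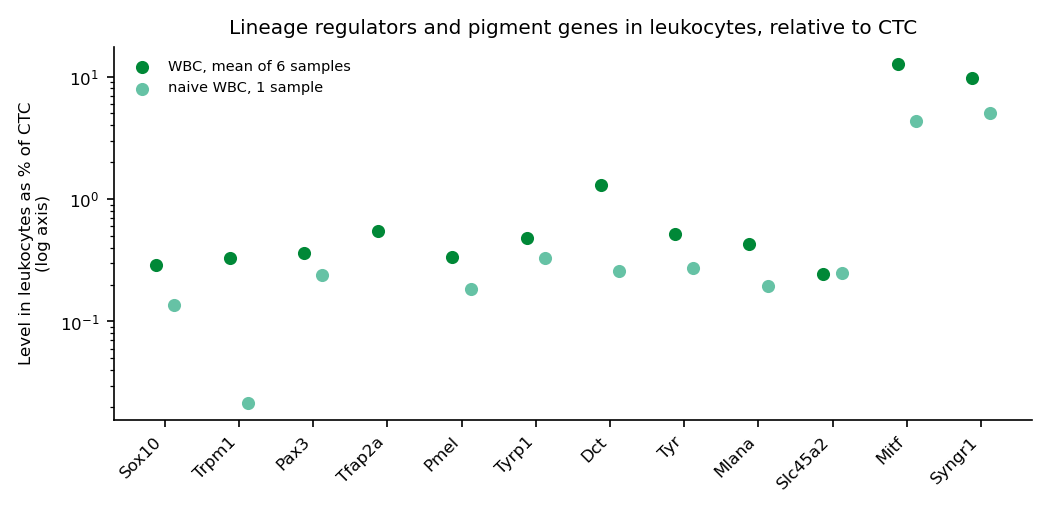
Level of the regulators and of 6 pigment genes in WBC and naive WBC as a percentage of the mean CTC level, on a log axis, with 1 point per gene and class and genes listed at 0 in a class not drawn. Sox10, Trpm1, Pax3 and Tfap2a lie with the pigment genes at or below 1.31% in WBC, and Mitf (4.47% without replicate 3) and Syngr1 lie apart at 12.7% and 9.67%. Lef1 is not drawn.

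Mitf was high in a minority of the pigment-low cells. Among the 217 pigment-low cells of DP, WBC and naive WBC, 63 reached 5 CPM of Mitf. At 50 CPM or more there were 28 such cells from 9 samples. Of these, 24 were DP cells, 1 was a blood WBC, 2 were lung WBC and 1 was a naive WBC. Their median Mitf was 171 CPM, a value raised by the choice of cells at 50 CPM or more. The CTC sums, not chosen by level, held 157 ± 64.4 CPM (SD, n = 5). In the 28 cells the median Sox10 was 0.318 CPM and Pax3 0.103 CPM. Their median pigment sum was 101 CPM, against 83.6 CPM in the 154 cells under 5 CPM of Mitf. Ptprc reached 5 CPM in 27 of the 28 and in 129 of the 154. A sum of 8 macrophage markers was over 1000 CPM in 28 of 28 and in 125 of the 154. The median of that sum was 29786 CPM in the 63 cells at 5 CPM or more of Mitf and 31107 CPM in the 154, so it was not higher with Mitf. Of pigment-low cells that expressed at least 4 of the 8 macrophage markers, 54 of 166 reached 5 CPM of Mitf and 49 reached 5 CPM of Syngr1. These cells come from 10 samples and are not independent, so no interval is given. Of those with at least 3 of 5 B cell markers the counts were 6 and 7 of 36. No cell expressed at least 3 of 5 mast cell and basophil markers, and mast cells are a class known for Mitf.

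Syngr1 was likewise high in a minority of these cells. It was at 50 CPM or more in 31 pigment-low cells from 10 samples, 23 of them DP cells, with a median of 162 CPM. The median Mitf of these 31 cells was 0.879 CPM. Both genes were at 50 CPM or more in 4 cells, which is 4 of the 28 high in Mitf beside 31 of all 217. In WBC, Mitf at 50 CPM or more was found in 3 cells, all of replicate 3, with 447 CPM in 1 blood cell and 85.2 and 273 CPM in 2 lung cells. Their Sox10 was at most 1.04 CPM and their Lyz2, the macrophage lysozyme gene, lay between 4591 and 32744 CPM. Pax3 was at 8.62 CPM in the lung cell with 85.2 CPM of Mitf and at most 0.248 CPM in the others. The highest WBC sample of Mitf was the one that held these cells. Of all WBC, 4 were pigment-high, 3 in replicate 5 and 1 in replicate 2, and all 4 had 0 counts of Mitf.

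The comparison of DP with WBC of the same samples asked how far the whole DP class carried the lineage programme. Of 6 members tested, 5 were higher in DP and 0 lower, where 20.5% of all 12595 genes were called, 2220 higher and 366 lower. The median log2 difference was 1.17 over all genes. Sox10 differed by 5.66 ± 1.10 (SE; adjusted p = 0.00127 by the quasi-likelihood test of edgeR, Benjamini-Hochberg over all genes) and was higher in 6 of 6 samples. Trpm1 differed by 5.88 ± 0.94 (adjusted p = 2.64e-04), Pax3 by 5.57 ± 1.14 (adjusted p = 0.00195) and Tfap2a by 8.00 ± 1.73 (adjusted p = 0.00275), each higher in 6 of 6 samples. Replicate 4, whose 15 DP cells included 1 pigment-high cell, had DP levels of 0.300 CPM for Sox10 and 0.502 CPM for Pax3, so the DP and WBC ranges overlapped for both, as they did for Trpm1 (0.447 CPM), but not for Tfap2a. Syngr1 differed by 2.71 ± 0.93 (adjusted p = 0.0402, higher in 5 of 6 samples). That call ended under DESeq2 (1.62, adjusted p = 0.0621) and without replicate 1, 2, 3, 5, 6 or 7 (adjusted p from 0.0558 to 0.129). With sums of at least 5 cells the calls of Syngr1 (2.44, adjusted p = 0.224), Pax3 (7.04, adjusted p = 0.0592) and Tfap2a (8.29, adjusted p = 0.110) ended.

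Mitf was the member not called. Its difference between DP and WBC was 3.001 ± 1.17 (adjusted p = 0.0690, edgeR's quasi-likelihood test) although DP was higher in 6 of 6 samples. Without replicate 3, whose WBC held the 3 cells described, it was 4.69 and passed (adjusted p = 0.0123). In sums of blood cells alone it was 3.48 (adjusted p = 0.0310). It was lower and did not pass under DESeq2 (1.73, adjusted p = 0.0746) and without the replicate block (1.54, adjusted p = 0.212). With any other replicate left out the adjusted p ran from 0.0699 to 0.290.

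CTC against WBC gave the same division. Again 5 of 6 members were higher in CTC and 0 lower, where 26.6% of all genes were called, 2010 higher and 1338 lower, with a median of 0.74 over all genes. Sox10 differed by 7.13 ± 1.23 (adjusted p = 1.34e-04, edgeR's quasi-likelihood test), Trpm1 by 6.88 ± 1.06 (adjusted p = 3.82e-05), Pax3 by 6.59 ± 1.23 (adjusted p = 3.09e-04) and Tfap2a by 8.36 ± 1.80 (adjusted p = 0.00116). Syngr1 differed by 2.97 ± 0.96 (adjusted p = 0.0229), a call that ended without replicate 1 (adjusted p = 0.0543) or 3 (adjusted p = 0.118) and with sums of at least 5 cells (2.47, adjusted p = 0.183). The call of Tfap2a also ended with such sums (7.84, adjusted p = 0.0764). Mitf did not pass (2.84 ± 1.18, adjusted p = 0.0773) and did pass without replicate 3 (4.53, adjusted p = 0.00935), in blood alone (3.30, adjusted p = 0.0388) and with every cell scaled to the same total (3.38, adjusted p = 0.0380). It was 1.61 without the replicate block (adjusted p = 0.239) and 1.87 under DESeq2 (adjusted p = 0.0780). All 6 were higher in CTC in 5 of 5 samples. These comparisons share the WBC sums.

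**Figure D3:**
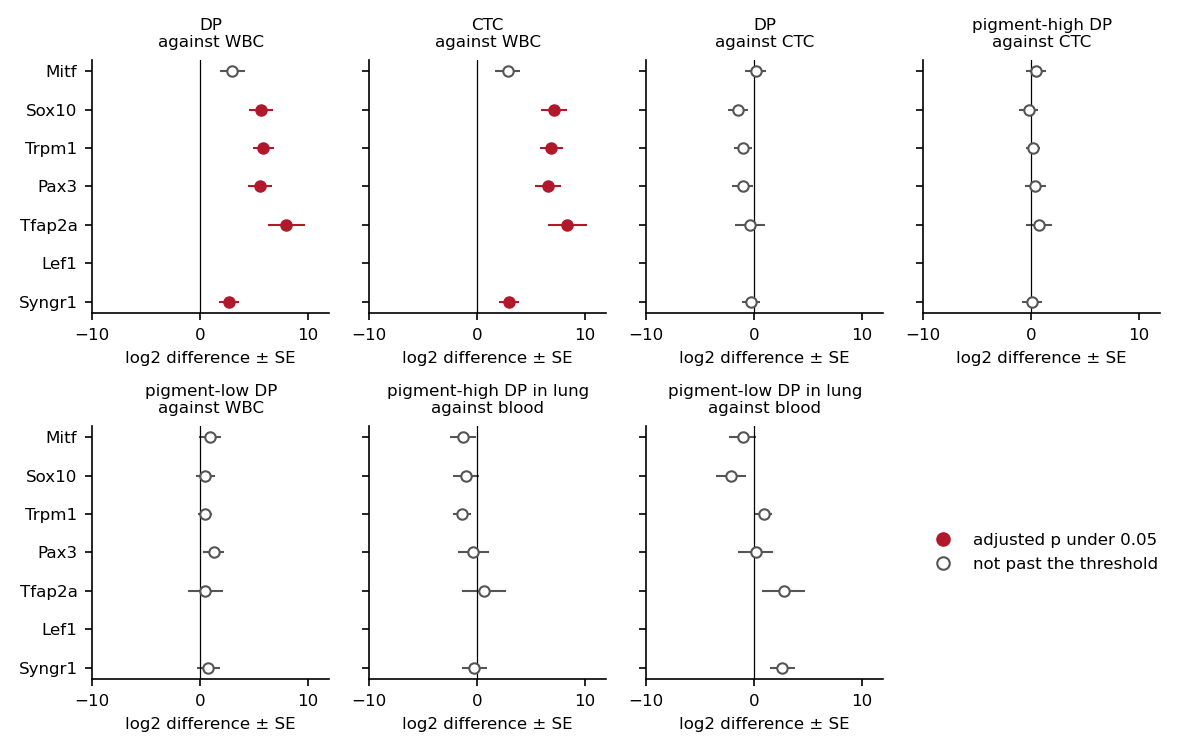
Log2 differences of 6 members with standard errors on the horizontal axis, by gene on the vertical axis, in 1 panel per comparison, with filled red points where the adjusted p is under 0.05. Filled points appear only against WBC for whole DP and for CTC, for all genes but Mitf, and the other 5 panels hold open points alone.

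DP against CTC asked whether the regulators were weaker in DP cells. No member passed: edgeR's quasi-likelihood test called 0 of 6 (5.85% of all genes were called, all of them higher in DP), 0 at an unadjusted p under 0.05, and DESeq2 called 0. Sox10 differed by -1.47 ± 0.93 (adjusted p = 0.834, lower in 4 of 5 samples), Pax3 by -1.02 ± 0.97, Trpm1 by -1.001 ± 0.82 and Mitf by 0.16 ± 0.94, beside a median of 0.21 over all genes. In sums of blood cells alone Sox10 was at -0.07, Pax3 at -0.08 and Trpm1 at 0.39, and without the replicate block they were at -0.89, -0.72 and -0.41. In pigment-high DP alone the differences from CTC were -0.20 ± 0.90 for Sox10, 0.42 ± 1.02 for Pax3, 0.22 ± 0.65 for Trpm1, 0.49 ± 0.95 for Mitf, 0.75 ± 1.23 for Tfap2a and 0.09 ± 0.92 for Syngr1. There too 0 of 6 were called by edgeR, 0 at an unadjusted p under 0.05 and 0 by DESeq2, where 2.66% of all genes passed, and the median over all genes was 0.16. With standard errors from 0.65 to 1.23 on the log2 scale, these values do not show that the classes are alike.

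Pigment-low DP cells were not told apart from WBC by any of the 6 members. Sox10 differed from WBC by 0.50 ± 0.91, Pax3 by 1.29 ± 0.98, Trpm1 by 0.44 ± 0.65, Tfap2a by 0.51 ± 1.64, Mitf by 0.96 ± 1.03 and Syngr1 by 0.79 ± 1.03, with 0 of 6 called by edgeR's quasi-likelihood test (0.619% of all genes), 0 at an unadjusted p under 0.05 and 0 by DESeq2. The median over all genes was 0.40. Pigment-low DP cells were chosen by low RNA of targets of MITF and SOX10, while WBC were not filtered by pigment. Likeness in the regulators was therefore partly set by the division. With standard errors from 0.65 to 1.64 on the log2 scale, these values do not show that the classes are alike. One sample stood apart: in replicate 6 pigment-low DP held 122 CPM of Sox10 and 51.2 CPM of Pax3, against at most 3.61 and 13.6 CPM in the other samples. A single blood cell there had 421 CPM of Sox10, 177 CPM of Pax3, 24.5 CPM of Mitf and 0 counts of Trpm1, with a pigment sum of 933 CPM, just under the 1000 CPM limit, and 0.0893 CPM of Ptprc.

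Within DP cells Sox10, Mitf and Pax3 came together with the pigment genes in blood but not always in lung. In blood, Sox10 had a median of 0.493 CPM in 57 cells with a pigment sum under 300 CPM, 6.18 CPM in 10 cells from 300 to 1000 CPM, 82.8 CPM in 10 cells from 1000 to 3000 CPM, 325 CPM in 21 cells from 3000 to 10000 CPM and 267 CPM in 175 cells above. In lung the medians over the same bins were 0.120, 0.590, 1.04, 7.03 and 173 CPM in 65, 22, 14, 5 and 71 cells. Trpm1 did not rise in this way in blood, with medians of 0.586, 3.07, 1.08, 0.0853 and 250 CPM over the bins. Tfap2a stayed low in blood, with medians of 0, 0, 1.75, 0.873 and 3.12 CPM. In the bin from 1000 to 3000 CPM the lung medians of Mitf and Pax3 were 1.02 and 0.607 CPM, against 66.5 and 33.4 CPM in blood. Ptprc reached 5 CPM in 10 of these 14 lung cells and in 3 of the 10 blood cells. Median depths were 3.39 and 4.84 Mcounts. Bins of under 20 cells are thin, and the tissues were not tested against each other within them.

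All of Mitf, Sox10 and Pax3 were at 5 CPM or more in 180 of 206 blood and 62 of 90 lung pigment-high DP cells, and in 25 of 28 blood and 13 of 15 lung CTC. None of the 3 was at that level in 9 pigment-high DP cells, all of them from lung. Of the 9, 5 were all the pigment-high lung cells of replicate 2, 3 came from replicate 5 and 1 from replicate 1. Their pigment sums ran from 1119 to 5962 CPM with a median of 1862, and 7 were under 3000 CPM. Lyz2 was at 100 CPM or more in 8 of the 9, with a median of 591 CPM, and their median depth was 1.69 Mcounts. The Lyz2 level was chosen after the data were seen. The part of leukocyte RNA and of depth in these values was not tested.

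**Figure D4:**
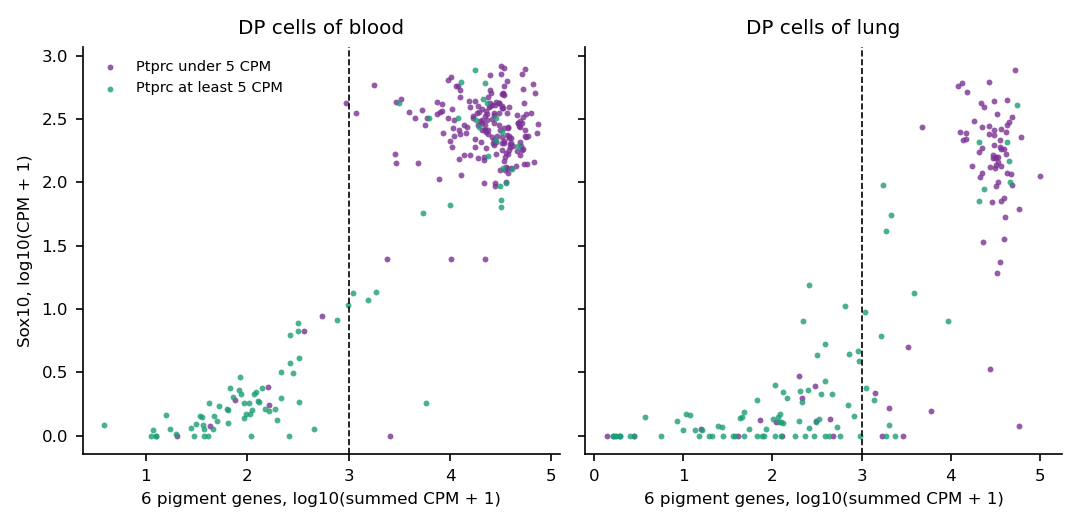
Sox10 as log10(CPM + 1) on the vertical axis against the sum of 6 pigment genes as log10(summed CPM + 1) on the horizontal axis, for DP cells of blood and of lung, with 1 point per cell, colour for Ptprc at 5 CPM or more, and a dashed line at 1000 CPM. In blood nearly all cells right of the line are high in Sox10, and in lung a group of cells just right of it lies near 0.

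Cells with the 3 regulators and the leukocyte gene Ptprc at 5 CPM or more numbered 21 of 206 in blood and 7 of 90 in lung among pigment-high DP cells. There were 11 of 18 in CDP and 11 of 24 in Duplike. WBC held 1 of 28 in blood and 1 of 18 in lung. No such cell was found among 43 CTC, 22 B16F10, 24 PltLike or 21 naive WBC cells. Wells with more than 1 cell were neither sought nor removed.

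The comparison of lung with blood in pigment-high DP used the samples that held both. Sox10 was at 244, 281, 341 and 299.8 CPM in blood and 0.373, 218, 229 and 191 CPM in lung in replicates 2, 3, 5 and 7. Mitf was at 292, 190.4, 252 and 462 CPM in blood and 0.186, 169, 179.5 and 144 CPM in lung. Trpm1 was at 183, 773, 935 and 442 CPM in blood and 1.118, 174, 374 and 431 CPM in lung. Each of the 3 genes was lower in lung in 4 of 4 samples, by far the most in replicate 2, whose 5 lung cells are among the 9 described. The other members did not share this. Pax3 and Tfap2a were higher in lung in 2 of 4 samples and lower in 2 (-0.32 ± 1.44 and 0.66 ± 2.07). Syngr1 was higher in 3 and lower in 1 (-0.24 ± 1.19). The differences were -1.03 ± 1.22 for Sox10 (adjusted p = 0.935, edgeR's quasi-likelihood test), -1.32 ± 1.22 for Mitf (adjusted p = 0.924) and -1.39 ± 0.86 for Trpm1 (adjusted p = 0.808), beside a median of -0.48 over all genes. No member passed, at an unadjusted p under 0.05 or by DESeq2 either, where 0.913% of all genes were called. Without replicate 2 the values of Sox10, Mitf and Trpm1 were -0.34, -0.56 and -0.71. On simulated data this comparison recovered 0.935% of changes of log2 2, so these values do not show that the tissues are alike.

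In pigment-low DP, Mitf was also lower in lung in 4 of 4 samples (-1.04 ± 1.23, adjusted p = 0.863 by edgeR). Syngr1 was higher in 3 of 4 (2.64 ± 1.18, adjusted p = 0.421, unadjusted p = 0.0309). No member passed, with 1 at an unadjusted p under 0.05 and 0 by DESeq2, where 0.142% of all genes were called and the median over all genes was 0.08. Sox10 differed by -2.14 ± 1.41 (adjusted p = 0.650, edgeR). On simulated data this comparison recovered 0% of changes of log2 2, so likeness of the tissues is not shown here either.

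Many genes known as targets of MITF and SOX10 were, like the regulators, higher in DP and CTC than in WBC. Of all genes, 20.5% were called in DP against WBC and 26.6% in CTC against WBC. Of 16 pigment and melanosome genes, DP exceeded WBC in 12 and fell below it in 1, Tpcn2, a lysosomal channel gene (-3.39, adjusted p = 0.0493, edgeR's quasi-likelihood test), at a list median of 5.89. In CTC against WBC 12 were higher and 0 lower, with a median of 7.01, and none passed in the other 5 comparisons. The 6 genes that divide DP are among the 16. Where pigment-high or pigment-low DP was compared, the lack of a difference was therefore partly set by the division and is not read as a result. Of 12 other MITF targets, 6 were higher in DP than in WBC and 0 lower, with a median of 4.60 beside 1.17 over all genes. They included Met, the receptor of hepatocyte growth factor (5.97), Ppargc1a, a regulator of mitochondria (6.33), Mc1r, the receptor for melanocyte-stimulating hormone (6.77), and Tbx2, a T-box repressor (7.23). Met was at 639 ± 185 CPM (SD, n = 5) in CTC, 634 ± 186 (n = 8) in pigment-high DP, 25.4 ± 27.1 (n = 9) in pigment-low DP and 2.38 ± 2.27 (n = 6) in WBC.

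Other MITF targets are known from osteoclasts and macrophages. In CTC against WBC, where 26.6% of all genes were called, 5 of the 12 were higher and 2 lower (list median 2.13). The 2 were Acp5 and Clec4e. Ctsk, the cathepsin of osteoclasts, was higher in DP than in WBC (5.46, adjusted p = 0.0171 by edgeR). Acp5, the tartrate-resistant phosphatase of osteoclasts, was at 0.0961 ± 0.0906 CPM (SD, n = 5) in CTC, 28.9 ± 37.3 (n = 8) in pigment-high DP, 419 ± 325 (n = 9) in pigment-low DP and 139 ± 155 (n = 6) in WBC. With Clec4e, a lectin of myeloid cells, it was lower in CTC than in WBC (-11.38 and -12.31) and higher in pigment-high DP than in CTC (9.47 and 7.44). Both were also higher in pigment-high DP of lung than of blood (7.05 for Acp5 and 9.72 for Clec4e). They were 2 of 13 targets tested there, and 0 were lower, where 0.913% of all genes were called. All of these values passed edgeR's quasi-likelihood test. In DP against CTC they were likewise the 2 of 12 that passed. Of all genes, 5.85% were called in that comparison and 2.66% in pigment-high DP against CTC.

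Of the 3 relatives of MITF, which can pair with it, 1 was higher in DP than in WBC and 0 lower, and in CTC against WBC 1 was higher and 1 lower (list medians -0.90 and -0.94). Over all genes 20.5% and 26.6% were called in these comparisons, and 3 genes are too few to set against that. Tfe3 was present in every class, with 68.7 ± 20.2 CPM in CTC (SD, n = 5) and 61.7 ± 49.8 in WBC (n = 6). Tfec, which is known from macrophages, was at 0.00911 ± 0.00981 CPM in CTC, 28.3 ± 25.7 in pigment-low DP (n = 9) and 27.6 ± 43.5 in WBC, and was lower in CTC than in WBC (-10.99, adjusted p = 0.00305, edgeR's quasi-likelihood test). Tfeb was higher in DP (3.97, adjusted p = 0.0124) and CTC (3.74, adjusted p = 0.0180) than in WBC, where it was at 5.48 ± 10.9 CPM, but naive WBC held 68.0 CPM.

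Of 8 neural crest genes tested, 5 passed as higher in each of DP and CTC against WBC, with 0 lower and medians of 5.70 and 6.47. The shares of the next lists stand beside 20.5% of all genes called in DP against WBC and 26.6% in CTC against WBC. Of 8 upstream signals and cofactors, 1 was higher in DP than in WBC, Mc1r, which is also among the targets (list median 0.45), a share below that over all genes. In CTC against WBC 1 was higher, again Mc1r, and 2 were lower (list median 0.64). Ednrb, the endothelin receptor, was at 0.0763 ± 0.0386 CPM in CTC (SD, n = 5) and 458 ± 316 in WBC (n = 6; -13.23), and the factor Zeb2 differed by -1.85. Of 11 TCF and LEF partners, 2 were higher in DP and 1 in CTC than in WBC and 0 lower (list medians 1.46 and 0.47), shares below those over all genes, so nothing is read from these counts about the list. Axin2, a Wnt feedback gene, was higher in both (8.71 and 8.61) at a level of 1.63 ± 1.51 CPM in CTC, and Tle1, a corepressor, in DP (7.75). Of 6 genes of the melanoma state with little MITF, Tead1, a Hippo pathway factor, was the 1 that was higher in DP (7.11, list median 1.59) and in CTC (7.69, list median -2.32) than in WBC, and the immediate-early gene Jun was lower in CTC (-3.04).

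The genes most like each member were sought by Pearson correlation of log2 CPM over 35 sums of class, sample and tissue, as a description, since the sums share samples and span tumor and leukocyte classes. Sox10 was nearest to Mlph (0.994), Car14 (0.993) and Glrb (0.993), and Pax3 to Fbxo44 (0.991), Nrcam (0.990) and Car14 (0.988). Trpm1 was nearest to Gsta2 (0.975), Ppargc1a (0.955) and Slc6a17 (0.945). Mitf reached lower values, with Nup35 (0.918), Ahi1 (0.900) and Tbc1d7 (0.891), as did Syngr1 with Mtmr2 (0.952), Tspan3 (0.937) and Usp39 (0.909). Tfap2a was nearest to Tubd1 (0.921), Cldn12 (0.920) and Frk (0.911), and Lef1 to 2010109A12Rik (0.672). Between pigment-high cells of 1 sample and class the 5 most abundant members hardly followed one another. Over 12 sets of at least 15 cells the median Spearman rho was 0.16 for Mitf and Sox10 and -0.08 for Sox10 and Pax3, and of the 10 pairs among Mitf, Sox10, Pax3, Trpm1 and Syngr1 the highest median was 0.27, for Trpm1 and Syngr1. Tfap2a and Lef1 were not paired.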

How the data were processed

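Smart-seq2 libraries of single cells were analysed from 1 table of raw counts per gene and cell, deposited by the authors without normalization. Per the submitters' processing notes, the tools were Trim Galore, HISAT2, SAMtools and featureCounts, with BWA and Picard also named, on mm10. Versions and strand settings: not given in the sources used here. Of the nonzero counts 56.7% were even and PCR copies were not marked, so intervals cover counting error only. Counts are per gene, so first exons and isoforms of Mitf and Trpm1 are added together. No column of per-sample values was left unused (0).

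Cells were tied to samples by the deposited list of library names. Sums of counts were made for each class within a tissue and sample, over 2 cells or more, and tested with edgeR 4.0.16 (quasi-likelihood, TMM, filterByExpr; limma 3.58.1, R 4.3.3), with the sample as replicate block and tissue in the model. Adjusted p-values (Benjamini-Hochberg, all genes of a fit) were read at 0.05. SE is the absolute log2 difference divided by the square root of F. Classes are paired where 1 sample gave both by sorting. Over 7453 genes the median correlation of deviations was 0.0359 for 16 pairs of classes of 1 sample (3 over 0.1) and -0.00481 for 113 pairs of different samples. DESeq2 1.42.0, other scalings, filters, weights, pigment limits and each sample left out were alternatives. On simulated data with DP against WBC, 4.55% of changes of log2 2 and 100% of log2 6 were recovered (14500 genes). In lung against blood the shares were 0.935% and 91.3% for pigment-high DP and 0% and 94.6% for pigment-low DP.

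The 7 members, the gene lists and the comparisons were chosen with earlier results of these data known. Every member is named, with at most 4 genes per list and comparison by smallest p, relatives of the members, and the 3 genes most like each member in log2(CPM + 1). The levels of 50 CPM and of 100 CPM for Lyz2 were chosen after the data were seen. Gene positions come from GENCODE vM21 (GRCm38). Python 3.11.15, NumPy 2.4.6, pandas 2.3.3, SciPy 1.17.1 and Matplotlib 3.10.9 were used. No doublet caller was run.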

Additional observations from a re-analysis of the deposited data

Results flagged for a closer look

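Of 35 groups of 4 to 10 samples tested by Dixon's ratio, 14 held a sample that lay apart from the rest. In pigment-low DP these were replicate 1 for Mitf (58.3 CPM, next 28.2) and for Lef1 (1.11), replicate 6 for Sox10 (122, next 3.61) and Pax3 (51.2, next 13.6), replicate 5 for Trpm1 (16.6, next 4.33) and replicate 4 for Tfap2a (3.64, next 0.155). The Sox10 and Pax3 values of replicate 6 come with 1 cell whose pigment sum of 933 CPM lay just under the limit. In WBC they were replicate 3 for Mitf (84.5, next 26.1) and Lef1 (0.283, with 0 in the others), replicate 5 for Sox10 (2.49, next 0.952) and Trpm1 (3.78, next 0.990), and replicate 6 for Tfap2a (0.232, next 0.0642). Replicate 5 also held 3 of the 4 pigment-high WBC cells. Lef1 stood out in replicate 8 of DP (3.67) and of pigment-high DP (3.77) and, at a few counts, in replicate 3 of CTC (0.00670). In most of these groups the other samples lay near 0.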

How the results depend on the processing

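With sums of at least 5 cells the members called fell from 5 to 2 in DP against WBC and from 5 to 3 in CTC against WBC. Pax3 (in the first), Tfap2a and Syngr1 lost their calls, at log2 differences from 2.44 to 8.29. With each replicate left out they ranged from 4 to 5 in both and stayed at 0 in the other 5 comparisons. Without the replicate block the pairing by sample is ignored. The counts for DP and CTC against WBC were then 5 each as with it, and 1 member passed in pigment-low DP of lung against blood, where Sox10 was at -4.00. No other count of members called changed with the block. TMMwsp scaling reversed no member. DESeq2 moved the median log2 difference of all genes from 1.17 to 0.18 in DP against WBC and the split of higher and lower genes from 2220 and 366 to 3357 and 2279. In pigment-low DP against WBC it went from 74 and 4 to 1558 and 762, in pigment-high DP of lung against blood from 133 and 2 to 894 and 349, and in pigment-low DP of lung against blood from 6 and 15 to 947 and 1051.

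Counts of all genes called, least over the alternatives and most (DESeq2), were 294 and 5636 beside 2586 in DP against WBC, 160 and 1481 beside 737 in DP against CTC, 1281 and 5957 beside 3348 in CTC against WBC, 39 and 1064 beside 335 in pigment-high DP against CTC, 5 and 2320 beside 78 in pigment-low DP against WBC, 17 and 1243 beside 135 in pigment-high DP of lung against blood, and 3 and 1998 beside 21 in pigment-low DP. With each replicate left out they ran from 1599 (without 5) to 2580, 361 (3) to 725, 2387 (5) to 3343, 103 (5) to 333, 2 (5) to 89, 58 (3) to 165 and 1 (1) to 54.

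Every reversal concerned a log2 difference that was not called, and the causes were not tested. In DP against CTC, Mitf was -0.14 with DESeq2 and with sums of at least 5 cells, -0.07 without the block, -0.06 with cells scaled equally and -0.01 to 0.28 with a replicate left out. Tfap2a was 0.44 with sums of at least 5 cells, 0.52 in blood and -0.78 to 0.45 with a replicate left out, and in blood Trpm1 was 0.39 and Syngr1 0.29. In pigment-high DP against CTC, Sox10 was 0.35 in blood, 0.13 at 3000 CPM and -0.39 to 0.11 with a replicate left out. Trpm1 was -0.04 with DESeq2, -0.10 at 300 CPM and -0.0018 to 0.49. Pax3 was -0.09 without the block and -0.07 at 300 CPM, and Syngr1 -0.08 with DESeq2, -0.26 at 300 CPM and -0.00038 to 0.24. In pigment-low DP against WBC, Sox10 was -0.04 with DESeq2, -0.06 with equal scaling, -0.18 at 300 CPM and -0.15 to 0.99. Trpm1 was -0.16 with DESeq2 and -1.12 in blood, Tfap2a -0.35, -1.67 and -0.40 to 2.19, and Syngr1 -0.27 with at least 5 cells, -0.66 at 300 CPM and -0.25 to 1.42. In pigment-high DP of lung against blood, Pax3 was 0.11 without the block, 0.52 at 3000 CPM and -1.20 to 0.50. Tfap2a was -2.19 with at least 5 cells, -0.73 at 300 CPM and -1.40 to 1.71, and Syngr1 0.36 without the block, 0.70 at 300 CPM, 0.54 at 3000 CPM and -0.77 to 0.22. In pigment-low DP of lung against blood, Pax3 was -1.03 without the block, -1.39 with at least 5 cells, -0.32 with equal scaling and -1.27 to 1.43. With log2(CPM + 5), 1 of the 3 genes nearest to Mitf and 0 of those nearest to Tfap2a were the same. The WBC levels as a percentage of CTC with each WBC sample left out were chosen after seeing the data.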
